A study of Mus musculus with 24 samples.

Results

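Malat1, Neat1, Clk1, Clk4, Ccnl1 and Ccnl2 are 6 genes of nuclear RNA and splicing control, taken here by symbol from the table of raw gene counts of a mouse kidney study, 6 of 23955 symbols. They were picked because their counts part the libraries of day 5 of injury across genotype, so every comparison that holds a day 5 library is a description with no test. All 6 were among the 15080 genes kept by the low-count filter, and the smallest count of any of them in any library was 390. RNA was measured in 24 libraries of kidney tissue from wild type mice (WT, labelled PLD4+/+) and Pld4 knockout mice (KO, labelled PLD4-/-), with 4 libraries for each genotype and time. Kidneys were taken at day 0, where the treatment is given as control, or after UUO (unilateral ureteral obstruction, in which 1 ureter is tied off and the kidney behind it is injured and scars), at day 5 or day 10. Pld4 encodes a phospholipase D family member that acts as an exonuclease on nucleic acids. The labels give neither the age, sex and strain of the mice nor the deleted part of Pld4, and they do not say whether the 4 libraries of a group came from separate mice, so p-values measure the spread between these libraries, which may in part be technical.

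Malat1 and Neat1 are long noncoding RNAs made from neighbouring genes on mouse chromosome 19, and both stay in the nucleus. Malat1 gathers in nuclear speckles, bodies rich in splicing factors, and Neat1 is the scaffold of paraspeckles, bodies that hold RNA-binding proteins and some nuclear RNAs. Clk1 and Clk4 encode CDC-like kinases, which phosphorylate SR proteins and so release them from speckles to sites of splicing, and part of the Clk1 and Clk4 RNA itself keeps introns and stays in the nucleus. Ccnl1 and Ccnl2 encode the L-type cyclins, partners of CDK11 kinases that sit in speckles and take part in splicing. Malat1 has no ordinary poly(A) tail at its end, nor has the long form of Neat1, so libraries made with an mRNA kit hold these RNAs in part. Counts per gene do not separate isoforms or intron-holding RNA from spliced RNA.

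The stretches before the starts of Clk4 and Ccnl1 are shown because both hold the same 8-base palindrome, TGACGTCA, the core of a cyclic AMP response element. A RefSeq table of promoters matched 4 of the 6 genes, Malat1, Clk4, Ccnl1 and Ccnl2, and did not list Neat1 and Clk1. The 250 bases before the start are written 5′ to 3′ on the gene's own strand, and capitals mark exact matches on either strand to any of the 5 motifs searched. Positions are in build GRCm38.p6, which is not the build of the deposited counts (mm9), and none was carried over.
Clk4, chr11:51262864-51263113, plus strand: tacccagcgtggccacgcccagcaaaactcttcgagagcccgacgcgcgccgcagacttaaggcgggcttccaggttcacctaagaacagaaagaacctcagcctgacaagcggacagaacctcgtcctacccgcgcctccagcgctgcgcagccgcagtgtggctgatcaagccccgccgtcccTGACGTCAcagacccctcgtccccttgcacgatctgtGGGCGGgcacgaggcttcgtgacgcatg
Ccnl1, chr3:65958250-65958499, minus strand: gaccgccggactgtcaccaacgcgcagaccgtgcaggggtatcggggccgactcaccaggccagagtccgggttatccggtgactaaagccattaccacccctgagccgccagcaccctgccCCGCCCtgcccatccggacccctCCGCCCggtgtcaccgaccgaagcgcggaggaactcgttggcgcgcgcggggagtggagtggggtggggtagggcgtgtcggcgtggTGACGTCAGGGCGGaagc

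TGACGTCA lay 65 to 58 bases before the start of Clk4 and 18 to 11 bases before that of Ccnl1, and 1.55% of 32851 promoters in the same table held it. GGGCGG, the GC box, occurred once in Clk4 and 3 times in Ccnl1 and Ccnl2 each, where the 3 matches in Ccnl2 overlapped at their ends, and 32.7% of promoters held it. Ccnl2 (chr4:155812239-155812488, plus strand) had 1 CCAAT, found in 33.8% of promoters, and no TGACGTCA. Malat1 (chr19:5802673-5802922, minus strand) held none of the 5 motifs. TATAAA (12.4% of promoters) and the heat shock half-site pair GAANNTTC (6.69%) were in none of the 4. These are letter matches only, and no binding was measured.

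Total counts per library ran from 9800888 to 22542866, and the 6 genes together took 0.0863% to 0.589% of them. Values below are CPM, each library's counts set to a common total and scaled by the trimmed mean of M-values (TMM), unless FPKM, the deposited fragment count scaled to gene length and library size, is named. The tissue label held: markers of the proximal tubule, the main cell type of kidney cortex, summed to 35169 to 85833 CPM at day 0, and none of the 10 was at 0. The library KO day 0 replicate 4 stood apart from all others in sex-linked genes, with 875 CPM of Xist against at most 0.681 elsewhere and 0.388 CPM of Ddx3y against at least 57.9 elsewhere. WT day 10 replicates 2 and 3 held 3764 and 6376 CPM of 6 neutrophil markers, against 25.9 and 27.5 in the other 2 libraries of their group and at most 23.9 in any library of another group. Pld4 itself was counted in every library labelled KO. At day 5 it was at 32.9, 18.9, 13.3 and 16.3 CPM in KO replicates 1 to 4, and at 51.6, 48.4, 49.3 and 46.7 CPM in WT. It was at 24.3 to 50.3 CPM in KO against 54.7 to 117 in WT at day 10. At day 0 it was at 6.67 to 12.5 CPM against 5.02 to 8.19, where the genotypes overlapped. Reads outside the deleted part, which the labels do not name, would leave such counts, so they do not check the genotype labels. In bulk tissue, fewer cells of a type and less RNA per cell cannot be told apart.

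Malat1 varied least in the WT kidney before injury and widely in every other group. In WT at day 0 it was at 835, 852, 561 and 540.0 CPM in replicates 1 to 4. In KO at day 0 it was at 1059.6, 1592, 668 and 314 CPM, and the lowest of these came from the library that stood apart in sex-linked genes. At day 5 the WT libraries were at 2322, 1213, 1979 and 277 CPM. The KO libraries of day 5 were at 1563, 254, 258 and 322 CPM. So 1 library of each genotype lay among those of the other: WT replicate 4 with the low ones and KO replicate 1 with the high ones. At day 10 the values were 1869.7, 381, 1024 and 594 CPM in WT and 521, 1843, 446 and 522 CPM in KO, with the highest library of each group well above the others.

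Neat1 had the highest FPKM of the 6 genes in all 24 libraries, the scale on which genes of different length can be set side by side. Its mean FPKM was 266 ± 37.4 (SD, n = 4) in WT at day 0 and 515 ± 184 in WT at day 10, and Ccnl1 or Clk4 was the lowest of the 6 in every library. In CPM, Neat1 was at 2100.0, 1628, 1361 and 1432 in WT at day 0. In KO at day 0 it was at 2122, 1501, 1856 and 1160.2 CPM, and the groups overlapped. At day 5 it was at 2355, 1182, 2135 and 437 CPM in WT. The KO libraries of day 5 had 1893, 525, 419.9 and 366 CPM, so that WT replicate 4 and KO replicates 2 to 4 were all below every day 0 library. At day 10, 6 of 8 libraries were within the day 0 range and 2 of WT were above it, at 2412, 1594, 2854 and 1252 CPM in WT and 1396, 1889.9, 1648 and 1785 CPM in KO.

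The kinase genes were far tighter at day 0 than the noncoding RNAs. Clk1 was at 124, 108, 108 and 111 CPM in WT and at 133, 165, 145 and 111 CPM in KO. At day 5 Clk1 was at 223, 248, 379.6 and 64.2 CPM in WT. In KO at day 5 it was at 183, 82.1, 81.1 and 56.0 CPM, and no day 5 library of either genotype lay inside the day 0 range. At day 10 Clk1 was at 229, 201, 207 and 149 CPM in WT, all above the WT libraries of day 0, and at 133, 155, 181 and 201 CPM in KO. Clk4 had lower counts than Clk1, and the same libraries were high and low at day 5. It was at 62.6, 53.4, 52.6 and 49.4 CPM in WT at day 0 and at 54.0, 57.6, 61.6 and 46.2 CPM in KO at day 0. At day 5 it was at 89.2, 86.5, 139 and 24.6 CPM in WT and at 78.4, 29.6, 28.2 and 27.8 CPM in KO. At day 10 it was at 87.7, 68.2, 78.7 and 56.4 CPM in WT and at 51.2, 57.2, 60.8 and 66.0 CPM in KO, and the genotypes overlapped.

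Of the L-type cyclins, Ccnl1 had the lowest and most even level before injury. It was at 36.9, 40.2, 35.5 and 36.6 CPM in WT and at 48.8, 45.9, 48.6 and 36.5 CPM in KO at day 0. At day 5 it was at 92.0, 99.2, 158 and 31.1 CPM in WT and at 87.6, 29.5, 33.3 and 28.4 CPM in KO. At day 10 Ccnl1 was at 102, 159.5, 153 and 66.8 CPM in WT, where the top 2 values came from the libraries rich in neutrophil markers, and at 46.5, 71.7, 72.0 and 79.7 CPM in KO. Every WT library of day 10 was above every library of day 0. Ccnl2 was at 147, 116, 105 and 99.9 CPM in WT and at 145, 147, 161 and 97.8 CPM in KO at day 0. It was at 186, 197, 295 and 53.9 CPM in WT and at 157, 57.0, 54.8 and 52.7 CPM in KO at day 5. At day 10 it was at 198, 207, 222 and 135 CPM in WT and at 92.0, 135, 132 and 152 CPM in KO, where replicate 1 was the lowest of its group, as it was for Clk1, Clk4, Neat1 and Ccnl1.

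**Figure D1:**
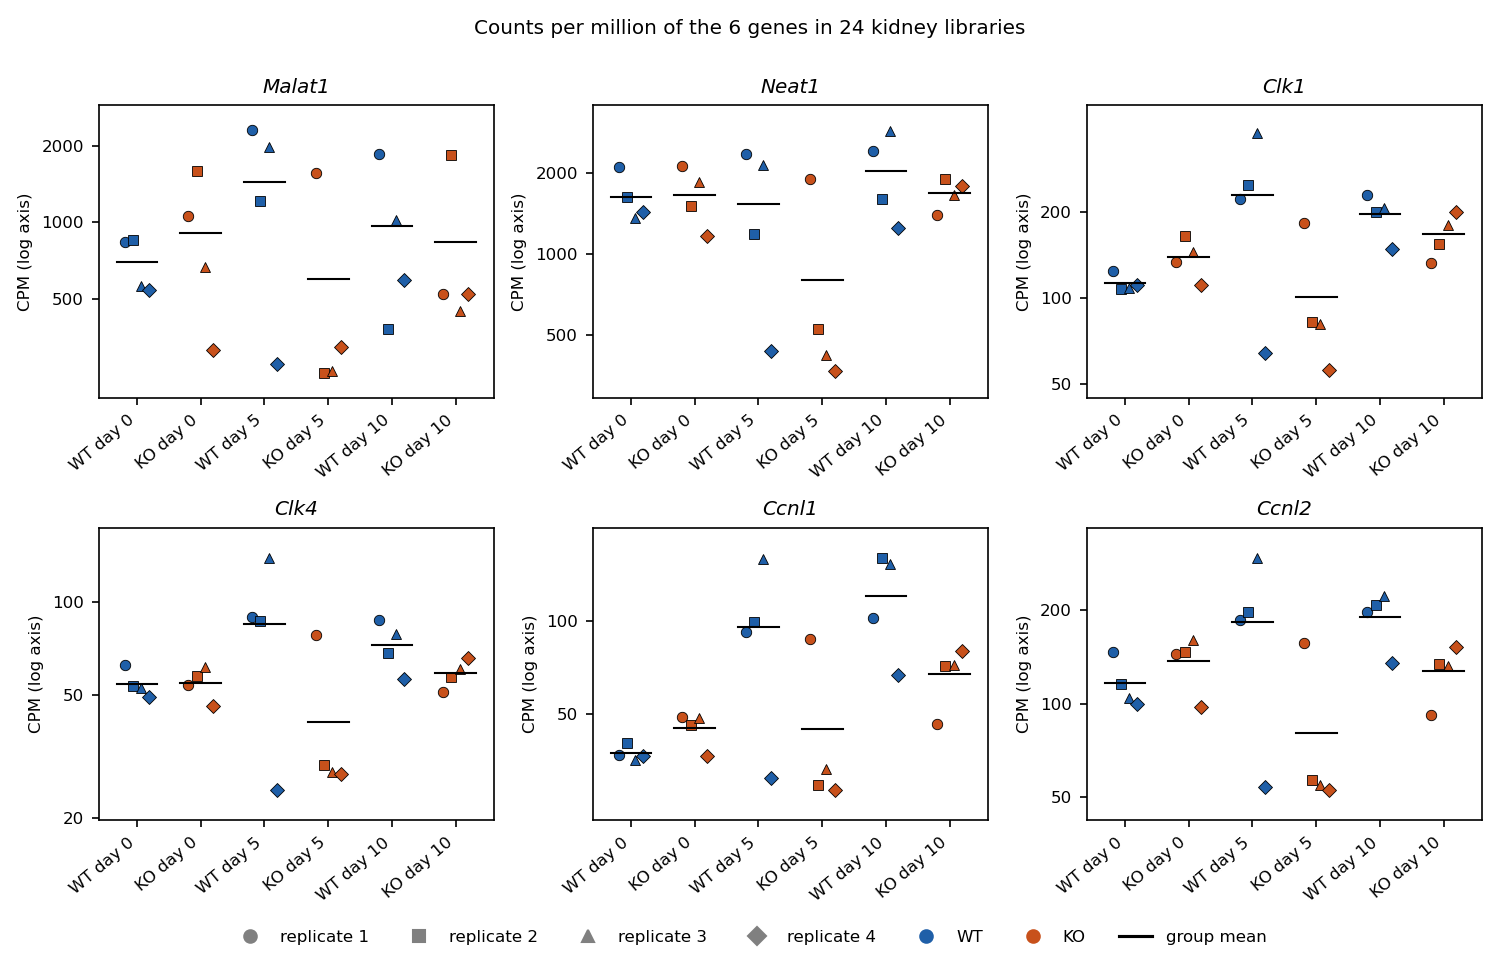
CPM (log axis) of each gene in the 24 libraries. Points are libraries, shaped by replicate number and coloured by genotype (blue WT, orange KO), and bars are group means. At day 5, WT replicates 1 to 3 and KO replicate 1 sit high and WT replicate 4 and KO replicates 2 to 4 sit low in all 6 panels.

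Ranked by group mean, WT at day 5 was highest for Malat1 (1448 CPM ± 908, SD, n = 4), Clk1 (229 ± 129) and Clk4 (84.8 ± 46.8), and WT at day 10 for Neat1 (2028 ± 735), Ccnl1 (120.3 ± 43.9) and Ccnl2 (191 ± 38.4). KO at day 5 was lowest for 5 of the 6 genes, from 41.0 CPM ± 24.9 for Clk4 to 801 ± 731 for Neat1. For Ccnl1 it was WT at day 0 (37.3 ± 2.03), just under KO at day 5 (44.7 ± 28.7) and KO at day 0 (45.0 ± 5.81). The ranges of neighbouring groups in these orders overlapped in every case. The step between neighbours was larger than the larger of their SDs in 3 cases only: Clk1 in KO over WT at day 0 (139 ± 22.4 over 113 ± 7.77), Clk4 in WT over KO at day 10 (72.8 ± 13.5 over 58.8 ± 6.19) and Ccnl1 in KO at day 10 over day 0 (67.5 ± 14.4 over 45.0 ± 5.81).

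At day 5 the 6 genes ordered the 8 libraries alike, which is how they were picked. WT replicates 1, 2 and 3 and KO replicate 1 were the top 4 for each gene. The widest step between neighbouring libraries fell right below them for all 6. This step was 3.76-fold for Malat1 (1213 to 322 CPM), 2.76-fold for Ccnl2, 2.65-fold for Clk4, 2.63-fold for Ccnl1, 2.25-fold for Neat1 and 2.23-fold for Clk1. On total-count CPM with no TMM factor and on FPKM the widest step lay at the same place for all 6 genes, at 1.96-fold (Clk1, FPKM) to 4.10-fold (Malat1, total-count CPM). The difference of group means, KO minus WT, was -1.27 ± 0.69 (log2, SE) for Malat1, -0.93 ± 0.47 for Neat1, -1.19 ± 0.36 for Clk1, -1.05 ± 0.35 for Clk4, -1.09 ± 0.38 for Ccnl1 and -1.18 ± 0.38 for Ccnl2. With KO replicate 1 left out these values ran from -1.57 (Clk4) to -2.38 (Malat1). With WT replicate 3 left out Ccnl1 was at -0.73, and with WT replicate 1 left out Neat1 was at -0.64. The spread within groups at day 5, as an SD of log2 CPM, was 0.89 (Ccnl1) to 1.33 (Malat1) against a median of 0.28 over 15080 genes, which put the 6 genes at the 97.1 to 99.7 percentile. At day 0, which the choice did not use, Malat1 stood at the 96.0 percentile of this spread and Ccnl1 at the 34.1, and at day 10 the 6 genes ranged from the 32.5 (Clk4) to the 92.7 (Malat1) percentile.

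Whether the low day 5 libraries were below the uninjured kidney depended on the scale. In TMM-scaled CPM, WT replicate 4 and KO replicates 2 to 4 were below every day 0 library for Neat1, Clk1, Clk4, Ccnl1 and Ccnl2, and 3 of these 4 libraries were for Malat1. In FPKM, all 4 were below every day 0 library for Neat1, Clk4 and Ccnl2, 2 of the 4 were for Clk1, and none was for Malat1 and Ccnl1. The high libraries, on the other hand, were above every day 0 library for Clk1, Clk4 and Ccnl1 on all 3 scales.

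Other measures of the day 5 libraries moved with this order in part. The summed CPM of 30 nuclear speckle protein genes was 7015, 6075, 7449 and 3705 in WT replicates 1 to 4 and 6033, 3542, 3837 and 3818 in KO replicates 1 to 4, the same top 4 libraries as for the 6 genes. The same held for the lists of SR protein genes (11 tested, 880.4 to 2144 CPM), paraspeckle protein genes (19 tested, 1688 to 2556 CPM) and other nuclear noncoding RNAs (12 tested, 340.4 to 912 CPM). It also held for immediate-early genes (20 tested, 745 to 1651 CPM) and for 4 Y-linked genes summed with Xist (181 to 266 CPM). All list sums here include listed genes that the low-count filter removed. The reverse order, with those 4 libraries lowest, was seen for 5 fibroblast markers, at 1293, 1768, 1821 and 2163 CPM in WT and 1501, 2009, 3096 and 2099 CPM in KO. It was also seen for 5 endothelial markers, at 295, 331, 319 and 442 CPM in WT and 271, 357, 470.2 and 421 CPM in KO. No fibroblast or endothelial marker was at 0 in any of these libraries, and the part of either cell type in the order was not tested. The 6 neutrophil markers (12.1 to 23.9 CPM), 6 macrophage markers (546 to 788 CPM), 10 proximal tubule markers (11570 to 25647 CPM) and 30 ribosomal protein genes (7688 to 12015 CPM) did not share the order. Rn45s, the ribosomal RNA precursor, ranged from 1672 to 5112 CPM at day 5. WT replicate 4 had the largest total of all 24 libraries (22542866), and the other 3 low libraries had 15557823 to 17451024 against 12455355 to 15459794 in the high ones. The part of depth was not tested.

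KO and WT did not differ beyond the spread of the libraries for any of the 6 genes at day 0. The KO minus WT differences were 0.38 ± 0.68 (log2, SE) for Malat1, 0.03 ± 0.47 for Neat1, 0.30 ± 0.36 for Clk1, 0.01 ± 0.35 for Clk4, 0.27 ± 0.38 for Ccnl1 and 0.24 ± 0.37 for Ccnl2. By edgeR's quasi-likelihood test with Benjamini-Hochberg adjustment over all genes, 0 of 6 passed 0.05 (adjusted p from 0.782 to 0.999), where 4.26% of all genes tested did. None had an unadjusted p under 0.05, and DESeq2 and limma on FPKM called none either. In this fit, whose spread includes day 5, the 95% intervals run from -1.05 to 1.81 for Malat1 and from -0.45 to 1.05 for Clk1. Differences of up to those sizes are not excluded by this fit. Malat1 was at -0.05 without KO day 0 replicate 2 and at 0.66 without replicate 4. Fitting the 16 libraries of day 0 and day 10 alone gave 0.36 ± 0.57 for Malat1 and, with a smaller error, 0.27 ± 0.15 for Clk1.

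At day 10 the KO means were below the WT means for all 6 genes, by amounts that did not pass the test. Ccnl1 differed by -0.83 ± 0.38 (unadjusted p = 0.0396, adjusted p = 0.308 by edgeR's quasi-likelihood test), and 3 of 4 KO libraries lay inside the WT range. It was -0.32 ± 0.44 without WT day 10 replicates 2 and 3, the libraries rich in neutrophil markers. Ccnl2 differed by -0.58 ± 0.37, Clk4 by -0.31 ± 0.35, Neat1 by -0.27 ± 0.47, Clk1 by -0.23 ± 0.36 and Malat1 by -0.22 ± 0.68. So 0 of 6 passed, against 1.44% of all genes tested, in a fit whose spread includes day 5. In the fit of all 24 libraries Ccnl1 alone had an unadjusted p under 0.05, and DESeq2 and limma on FPKM called none. Fitting the 16 libraries of day 0 and day 10 alone gave -0.83 ± 0.22 for Ccnl1, -0.57 ± 0.20 for Ccnl2 and -0.30 ± 0.13 for Clk4. By edgeR's quasi-likelihood test their unadjusted p were 0.00219, 0.0110 and 0.0392. Their adjusted p were 0.146, 0.219 and 0.315, so 0 of 6 passed there too. Of all genes, 5 were called higher and 3 lower in that fit. With the replicate block, which pairs same-numbered libraries, Ccnl1 was at -0.74 ± 0.37 (adjusted p = 0.330) and no gene of the 6 had an unadjusted p under 0.05. The Malat1 value rests on single libraries: it was -0.96 without KO replicate 2 and 0.32 without WT replicate 1.

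From day 0 to day 10 in WT kidneys, Ccnl1 rose by 1.69 ± 0.39, or 3.23-fold, from 37.3 CPM ± 2.03 to 120.3 ± 43.9 (SD, n = 4; adjusted p = 0.000714, edgeR's quasi-likelihood test). It was higher in 4 of 4 libraries than in any of day 0. The rise was 1.18 ± 0.44 without WT replicates 2 and 3 (adjusted p = 0.0272), and the adjusted p stayed between 2.95e-05 and 0.0272 in the other settings run. The 10 proximal tubule markers summed to 8178, 484, 2099 and 23997 CPM in WT replicates 1 to 4 of day 10, so the libraries highest in Ccnl1 were also those lowest in these markers, whose part in the rise was not tested. Clk1 was 0.80 ± 0.36 higher (adjusted p = 0.0536), with no overlap between the groups. Ccnl2 was 0.71 ± 0.38 higher (adjusted p = 0.10), Malat1 0.47 ± 0.68 (0.551), Clk4 0.42 ± 0.35 (0.299) and Neat1 0.31 ± 0.47 (0.564), none past the threshold. So 1 of 6 passed, where 68.1% of all genes tested did and 38.6% were higher. Groups that did not overlap, with day 10 higher, were seen for 2 of 6, Clk1 and Ccnl1, and for 33.4% of all genes.

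The WT day 10 count turned on which libraries set the error. The fit above pools the spread of all 6 groups, day 5 included, and the 6 genes were picked for their spread at day 5. When the 16 libraries of day 0 and day 10 were fitted alone, the standard error of Clk1 fell from 0.36 to 0.15, that of Clk4 from 0.35 to 0.13 and that of Ccnl2 from 0.38 to 0.20. Ccnl1 (1.62 ± 0.23, adjusted p = 2.95e-05), Clk1 (0.73 ± 0.15, 0.000699), Ccnl2 (0.64 ± 0.20, 0.00959) and Clk4 (0.35 ± 0.13, 0.0293) then passed edgeR's quasi-likelihood test, 4 of 6, where 69.7% of all genes did. Malat1 (0.40 ± 0.57) and Neat1 (0.24 ± 0.28) did not pass. In the fit of all groups, Clk1 passed when 1 of 5 libraries was left out: WT day 5 replicate 3 (0.80, adjusted p = 0.0384), WT day 5 replicate 4 (0.80, 0.0107), KO day 5 replicate 1 (0.80, 0.0287), KO day 5 replicate 4 (0.80, 0.0448) or WT day 10 replicate 4 (0.91, 0.0391), and Ccnl2 passed without WT day 5 replicate 4 (0.71, 0.0381). Scaling matters here too. With total counts in place of TMM factors, the median of all genes moved up by 0.47 in WT and 0.44 in KO, and the values of these genes moved with it.

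In KO kidneys the same comparison gave smaller values. Ccnl1 was 0.59 ± 0.38 higher at day 10 than at day 0 (adjusted p = 0.202), Clk1 0.27 ± 0.36, Clk4 0.10 ± 0.35 and Neat1 0.02 ± 0.47, while Malat1 was at -0.12 ± 0.68 and Ccnl2 at -0.11 ± 0.37. By edgeR's quasi-likelihood test 0 of 6 passed, against 54.2% of all genes. The error of this fit includes the day 5 spread, on which the 6 genes were picked, so 0 of 6 is not read against that share. None of the 6 had an unadjusted p under 0.05, DESeq2 called none, and limma on FPKM called 2, Ccnl1 (1.09) and Clk1 (0.97). In the fit of the 16 libraries Ccnl1 passed narrowly (0.55 ± 0.22, adjusted p = 0.0494), where 55.4% of all genes did. The signs for Malat1 and Ccnl2 flipped to 0.35 and 0.34 under total counts and to 0.45 and 0.49 in FPKM. The difference between genotypes in the day 10 response, tested as an interaction, passed for 0 of 6 genes (3.37% of all genes), with no unadjusted p under 0.05 and none called by DESeq2 or limma on FPKM. It was -1.10 ± 0.54 for Ccnl1 (adjusted p = 0.334), -0.81 ± 0.53 for Ccnl2, -0.60 ± 0.96 for Malat1, -0.53 ± 0.50 for Clk1, -0.32 ± 0.50 for Clk4 and -0.30 ± 0.66 for Neat1. In the fit of the 16 libraries it was -1.07 ± 0.32 for Ccnl1, -0.78 ± 0.28 for Ccnl2 and -0.50 ± 0.22 for Clk1. By edgeR's quasi-likelihood test their unadjusted p were 0.00419, 0.0131 and 0.0367. Their adjusted p were 0.121, 0.193 and 0.287, and 0 of 6 passed. Of all genes, 0 were called higher and 2 lower in that fit. The larger rise in WT than in KO is thus not shown to be a difference between genotypes.

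**Figure D2:**
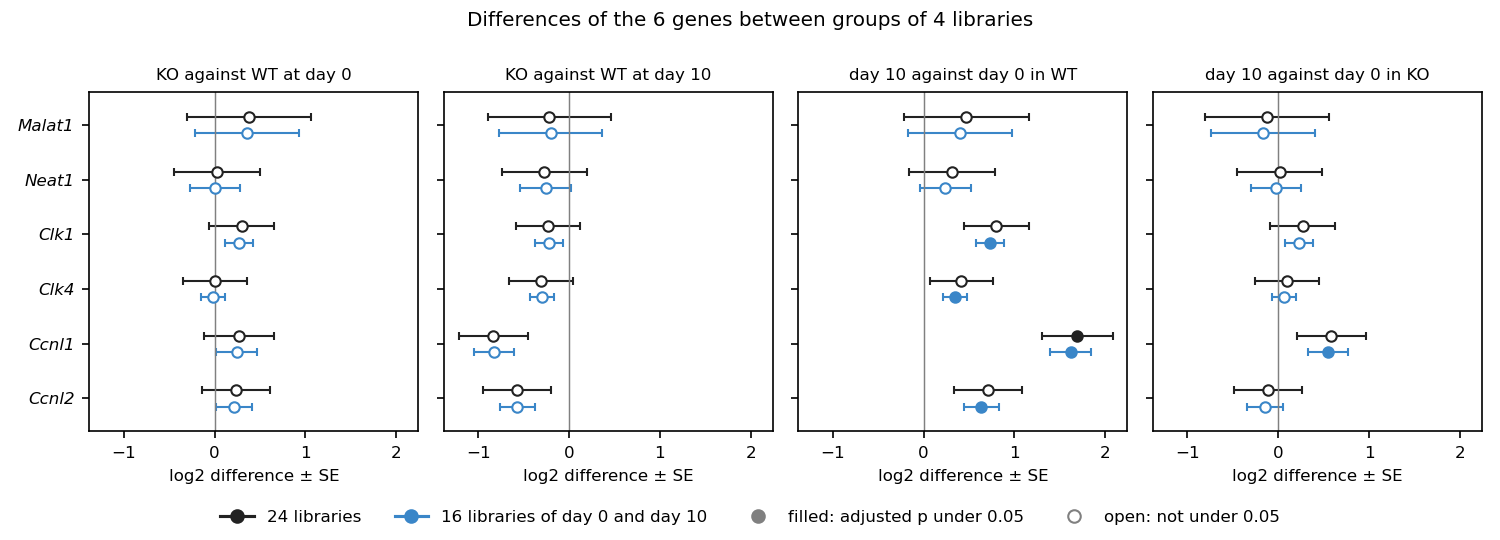
Differences (log2, ± SE) of the 6 genes in 4 comparisons between groups of 4 libraries, from the fit of all 24 libraries (black) and of the 16 libraries of day 0 and day 10 (blue). Filled points have an adjusted p under 0.05: Ccnl1 alone in black, and Ccnl1, Clk1, Clk4 and Ccnl2 in WT and Ccnl1 in KO in blue.

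Away from day 5, the kinase genes, Ccnl2 and Neat1 varied together between libraries of 1 group, least so for Neat1 with Clk1, while no pair with Malat1 passed by r. This was tested in the 16 libraries of day 0 and day 10 on deviations of log2 CPM from the group mean, over 15 pairs. All 15 correlations were positive, from r = 0.12 (Malat1 and Ccnl1) to r = 0.89 (Clk1 and Clk4). By a two-sided permutation test shuffling libraries within groups, 8 of 15 passed after Benjamini-Hochberg adjustment, and 7 of 15 passed by Spearman's rho. The share of pairs of other genes that would pass was not counted, so 8 of 15 is not set against it. Clk1 and Clk4 gave r = 0.894 (permutation p = 0.00013, adjusted p = 0.00195) and rho = 0.838 (permutation p = 0.00038, adjusted p = 0.0057). Clk4 and Ccnl2 gave r = 0.867 (permutation p = 0.00056, adjusted p = 0.0042) and rho = 0.791 (permutation p = 0.00285, adjusted p = 0.0129). Neat1 followed Clk4 (r = 0.818, permutation p = 0.0028, adjusted p = 0.007; rho = 0.821, permutation p = 0.00343, adjusted p = 0.0129). Neat1 and Clk1 passed narrowly by r (0.622, permutation p = 0.0245, adjusted p = 0.046) but not by rho (0.526, permutation p = 0.0591, adjusted p = 0.0985). That pair also did not pass in FPKM (r = 0.594) or without KO day 0 replicate 4 (r = 0.533). Ccnl1 followed Ccnl2 (r = 0.807, permutation p = 0.00153, adjusted p = 0.00477; rho = 0.718, permutation p = 0.0026, adjusted p = 0.0129).

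By r between pairs Malat1 was the loosest of the 6, though r with their mean was lower for Ccnl1 (0.64) than for Malat1 (0.78). None of the 5 Malat1 pairs passed by r, and the closest, with Neat1, was r = 0.611 (permutation p = 0.041, adjusted p = 0.0683) and rho = 0.721 (permutation p = 0.0152, adjusted p = 0.0327). With the 2 libraries farthest from the median on the x axis left out, r was 0.178 to 0.917 over the 15 pairs and positive in all 15. For Clk1 and Clk4 it was 0.831 and for Clk4 and Ccnl2 0.917, while Clk1 and Ccnl1 went from 0.679 to 0.327, so that relation rests on those libraries. Without KO day 0 replicate 4, 6 of 15 pairs passed and r ran from -0.01 (Malat1 and Ccnl1) to 0.87. Without WT day 10 replicates 2 and 3, 9 of 15 passed and r ran from 0.47 to 0.91. The libraries of day 5 fall into 2 separate sets, so no pooled r is given there.

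**Figure D3:**
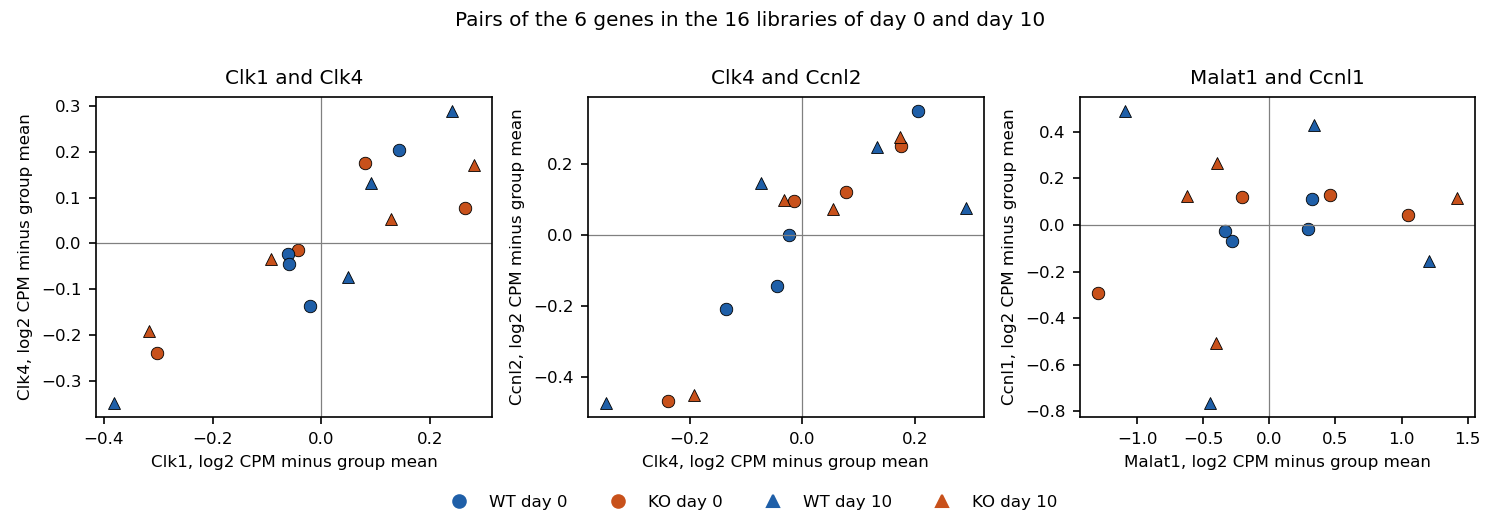
Deviations from the group mean (log2 CPM) of 3 pairs of genes in the 16 libraries of day 0 and day 10. Points are libraries, circles for day 0 and triangles for day 10, blue for WT and orange for KO. Clk1 with Clk4 and Clk4 with Ccnl2 lie along a line (r = 0.894 and 0.867), and Malat1 with Ccnl1 (r = 0.12) do not.

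Among the other genes of this machinery, described over lists that were chosen with earlier results of these data known, many were higher at day 10 in WT. This was not particular to the machinery. Of 30 ribosomal protein genes 25 rose and 0 fell (median 0.62), and 20 of 20 immediate-early genes rose (median 2.60). Of 13 heat shock and cold-inducible genes 4 rose and 5 fell. Of 30 nuclear speckle protein genes 21 rose and 0 fell, with a median of 0.56 against 0.14 over all genes tested, of which 38.6% rose and 29.5% fell. They included Bclaf1 (0.58 ± 0.13), Tra2a, a splicing activator (1.34 ± 0.30), Ddx39b, an RNA helicase of splicing and export (0.76 ± 0.17), and Rbm6 (0.65 ± 0.15). Of 11 SR protein genes, the substrates of CLK kinases, 7 rose and 0 fell (median 0.55), among them Srsf9 (0.68 ± 0.17), Srsf3 (0.64 ± 0.18) and Srsf7 (0.83 ± 0.24). Srsf12 also passed but had almost no counts at day 0, so no fold is given. Without WT day 10 replicates 2 and 3 these counts were 11 of 30 and 3 of 11, and with total counts in place of TMM factors 30 of 30 and 11 of 11. Total counts raised the median of all genes from 0.14 to 0.61. The share of all genes that rose in either setting is not given here, so these counts are not read against it.

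Of 19 paraspeckle protein genes 12 rose in WT and 0 fell (median 0.57), and with total counts, where the median of all genes was 0.61, 19 rose. Nono and Pspc1, core paraspeckle proteins of the DBHS family, rose by 0.55 ± 0.11 and 0.59 ± 0.12, and Rbm3, a cold-inducible RNA-binding protein, by 1.53 ± 0.16. Of 14 other kinases and cyclins of this pathway 5 rose and 3 fell (median 0.17), with the rising share near the 38.6% of all genes. Clk2, another CDC-like kinase, rose by 0.99 ± 0.25, the SR-protein kinase Srpk2 by 0.36 ± 0.12 and the L-cyclin partner Cdk11b by 0.34 ± 0.12, and Dyrk1b fell by 0.71 ± 0.15. With total counts 9 rose and 0 fell, and without WT day 10 replicates 2 and 3 the counts were 2 and 1. Here too the share of all genes in those settings is not given. Of 12 other nuclear noncoding RNAs tested, from a list of 16, 7 rose and 1 fell (median 0.87). Snhg1 and Gas5, hosts of small nucleolar RNAs, rose by 1.45 ± 0.26 and 1.09 ± 0.23, Dnm3os rose by 4.31 ± 0.64, and Airn, the antisense RNA of Igf2r, fell by 2.04 ± 0.35. Whether strand was used in the counting is not given in the sources used here, so Airn and Dnm3os cannot be told apart from the genes they overlap.

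In KO the counts of these lists depended on the scaling, and 28.5% of all genes rose and 25.7% fell. There 5 of 30 speckle protein genes, 1 of 11 SR protein genes, 8 of 19 paraspeckle protein genes, 1 of 14 other kinases and cyclins and 5 of 12 noncoding RNAs rose, and none fell, with medians of 0.22, 0.15, 0.33, 0.06 and 0.61 against 0.05 over all genes. The SR protein gene was Srsf12, near 0 counts at day 0. Bclaf1 rose by 0.46 ± 0.13 and Son, a core scaffold of speckles, by 0.39 ± 0.15. Pspc1 rose by 1.13 ± 0.12, Rbm3 by 1.41 ± 0.16 and Snhg1 by 1.03 ± 0.26. With total counts, which shift the median of all genes by 0.44, 22 of 30 speckle, 9 of 11 SR and 17 of 19 paraspeckle genes passed. The share of all genes that rose with total counts is not given here. No gene of the speckle, SR, paraspeckle or kinase lists passed in the interaction test, or between KO and WT at day 0 or day 10, by edgeR's quasi-likelihood test. Of the noncoding RNAs, Airn alone passed in any of these 3 tests, lower in KO at day 0 by -1.20 ± 0.34 (adjusted p = 0.0478). That call was lost with no low-count filter, in FPKM, in the fit of 16 libraries and with total counts. It was also lost when any 1 of these libraries was left out: WT day 0 replicates 1 to 3, KO day 0 replicates 2 to 4, WT day 5 replicate 2, and each KO library of day 5 and day 10.

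The genes whose libraries followed the 6 most closely were chosen by the correlation of their deviations with the mean deviation of the 6 over all 24 libraries, among 10805 genes whose mean log2 CPM was 3 or more. The top 10 were Gm17066 (r = 0.984), Ogt (0.983), Crebzf (0.981), Fnbp4 (0.980), Luc7l (0.979), Pnisr (0.978), Arglu1 (0.977), Msantd2 (0.976), Prpf38b (0.975) and Srsf11 (0.975). Ogt encodes the enzyme that attaches N-acetylglucosamine to nuclear and cytosolic proteins, Luc7l and Prpf38b are splicing factors, and Srsf11 is an SR protein. These r values rest on the day 5 libraries that picked the 6 genes. Over the 16 libraries of day 0 and day 10 alone they were 0.882 (Prpf38b) to 0.969 (Fnbp4). Of 10805 genes 106 (0.981%) reached 0.8 there, and the median gene was at -0.06. Without KO day 0 replicate 4 the 10 genes were at 0.834 (Msantd2) to 0.958 (Crebzf). All values share the same libraries and depth and are descriptions with no test. The mean deviation of the 6 was not scaled by gene, so Malat1, with the widest spread, weighs most in it.

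Ogt shows the pattern in CPM. At day 5 it was at 442, 369.5, 506 and 120.1 in WT and at 399, 167, 163 and 146 in KO, against 229 to 345 over the 8 libraries of day 0. Msantd2 had the widest swing of the 10 at day 5, from 6.66 CPM in WT replicate 4 to 48.4 in WT replicate 3. For single members, the closest gene over 24 libraries was 4933427D14Rik for Malat1 (r = 0.922), Leng8 for Neat1 (0.963), the SR protein gene Srsf6 for Clk1 (0.987), Msantd2 for Clk4 (0.981), Zc3h7a for Ccnl1 (0.979) and Nxf1, the mRNA export receptor, for Ccnl2 (0.988). Over the 16 libraries of day 0 and day 10 these pairs were at 0.834, 0.878, 0.952, 0.867, 0.923 and 0.961. At the other end, Ext2 (-0.953), Lrp5 (-0.943) and Coa7 (-0.924) ran most strongly against the 6 genes over the 24 libraries.

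**Figure D4:**
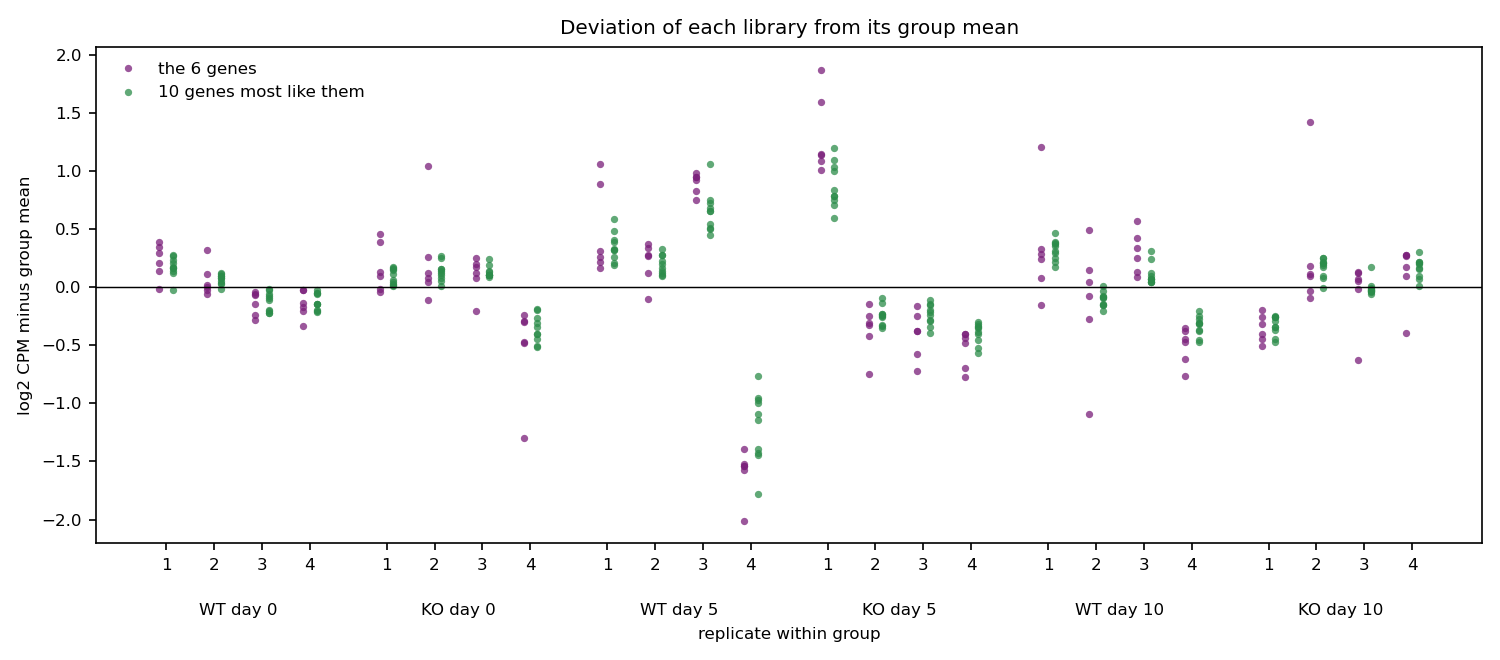
Deviation of each library from its group mean (log2 CPM) for the 6 genes (purple) and the 10 genes most like them (green). Each point is 1 gene in 1 library. WT day 5 replicate 4 lies far below and KO day 5 replicate 1 far above their groups, and smaller shared shifts are seen at day 0 and day 10, such as KO day 0 replicate 4 and WT day 10 replicate 4 below their groups.

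Measured in the 16 libraries of day 0 and day 10, likeness to the mean of the 6 genes was unevenly spread over the lists. That unscaled mean leans on Malat1, whose SD within groups was 0.75 at day 0 and 0.97 at day 10. The other members had 0.15 (Ccnl1, day 0) to 0.48 (Ccnl1, day 10). The lists were chosen with earlier results of these data known, so their medians are descriptions with no test. The speckle list holds Luc7l, Pnisr, Prpf38b and Ogt, all among the 10 genes most like the 6. Ogt is counted there although its enzyme is not particular to speckles. The 30 speckle protein genes had a median r of 0.72, and 16 reached 0.7, led by Luc7l (0.94), Luc7l3 (0.92), Ogt (0.92) and Pnisr (0.91), while Thrap3 was at 0.06. The 10 SR protein genes with enough counts had a median of 0.63, from Srsf5 (0.92) and Srsf11 (0.91) down to Srsf9 (-0.03). Of the 13 other kinases and cyclins, the CDC-like kinases came first, Clk2 at 0.78 and Clk3 at 0.70, against a median of 0.39, and Cdk11b was at 0.65. The 18 paraspeckle protein genes split: Tardbp (0.87), Cpsf6 (0.84), Ewsr1 (0.78) and Hnrnpa1 (0.78) were high. The core proteins named above, Nono (-0.12) and Pspc1 (-0.15), were not, while Sfpq was at 0.37 and the list median at 0.32. Of 7 other nuclear noncoding RNAs Gas5 was at 0.76, Firre at 0.68, Tug1 at 0.25 and Peg13, the lowest, at -0.65, with a median of 0.26. Medians were 0.15 for 29 ribosomal protein genes, 0.02 for 16 immediate-early genes, -0.07 for 13 heat shock and cold-inducible genes, -0.32 for 10 proximal tubule markers and 0.05 for 5 fibroblast markers, beside -0.06 for all genes. Without KO day 0 replicate 4 the speckle list was at 0.80, the SR list at 0.56, the paraspeckle list at 0.42 and the noncoding RNAs at 0.56. The 4 Y-linked genes with enough counts had a median of 0.57, and 0.24 without KO day 0 replicate 4. Immediate-early genes shared the order of the day 5 libraries but not the deviations at day 0 and day 10.

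**Figure D5:**
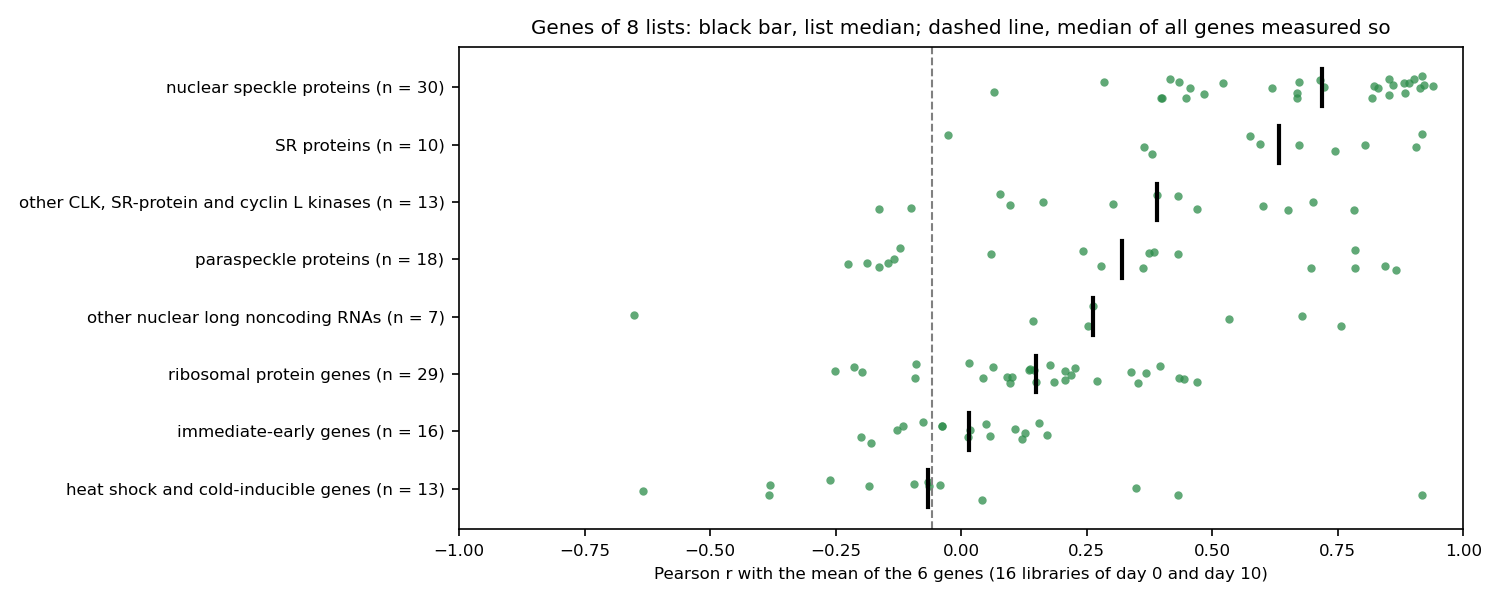
Pearson r of each gene's deviations with the mean deviation of the 6 genes over the 16 libraries of day 0 and day 10, for 8 lists. Points are genes, black bars are list medians (0.72 for nuclear speckle proteins, 0.63 for SR proteins), and the dashed line is the median of all genes (-0.06).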

How the data were processed

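Kidney mRNA was sequenced in 24 libraries made with a stranded mRNA kit, per the labels' protocols. The authors deposited raw gene counts and FPKM values. The submitters' processing notes name bcl2fastq 2.16, STAR 2.5, Cufflinks and build mm9, with no role given. The counting tool, its strand setting and the treatment of overlapping genes are not given in the sources used here. Of 23953 symbols with FPKM, 23894 were in both tables, and no column lacked a sample.

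Counts were tested with edgeR 4.0.16 (quasi-likelihood, robust, TMM) in R 4.3.3: 6 group means over 24 libraries, 18 residual degrees of freedom, filterByExpr (minimum count 10, minimum total 15), Benjamini-Hochberg over 15080 genes, threshold 0.05. Of 5 tested comparisons none holds day 5 libraries, but day 5 libraries take part in the pooled spread that sets the error. FPKM was tested as log2(FPKM + 1) with limma 3.58.1, and counts with DESeq2 1.42.0, as alternatives. Log2 CPM used a prior count of 2. Relations used 100000 permutations within groups (numpy 2.4.6, scipy 1.17.1). Other alternatives were RLE factors, other filters, the 16 libraries of day 0 and day 10 alone, a replicate block, each library left out, and both neutrophil-rich WT day 10 libraries left out. Total counts with no TMM factor, and relations and likeness without KO day 0 replicate 4 or those 2 libraries, were added after seeing the data. Tested on a single simulated draw of day 10 against day 0 in WT (14144 genes), the test recovered 75% of 100 genes changed by a log2 of 1. It recovered 97% of 100 changed by a log2 of 2, with 2.27% of calls false. Those genes were drawn at random and all others left unchanged, while 68.1% of genes were called in the real comparison. The rates therefore check the code and do not apply to the 6 genes.

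The labels number replicates 1 to 4 in each group without saying what a number shares. Same-numbered deviations correlated above 0.1 for every number only between KO and WT at day 10 (r = 0.204, 0.306, 0.141 and 0.280), so the blocked fit is given for that comparison.

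The members and lists were chosen with earlier results of these data known, and the nuclear speckle list also holds Ogt, whose enzyme acts on nuclear and cytosolic proteins. Genes named are the members, up to 4 of each list with the lowest p in the comparison described, the 10 most like the members and the closest to each member. Genes named for their likeness within a list, Airn between genotypes and the 3 genes that ran against the members were chosen after their values were seen. A comparison of the members' proteins was not analysed here. The value of 1 list gene that the rule names is not reported here.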

Additional observations from a re-analysis of the deposited data

Results flagged for a closer look

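KO day 5 replicate 1 lay far above the other 3 libraries of its group for 5 of the 6 genes: Malat1 was at 1563 CPM against 254 to 322, Neat1 at 1893 against 366 to 525, Clk4 at 78.4 against 27.8 to 29.6, Ccnl1 at 87.6 against 28.4 to 33.3, and Ccnl2 at 157 against 52.7 to 57.0. Clk1 in the same library was at 183 CPM against 56.0 to 82.1. The genes were picked on these day 5 values, so they are a description and no test is read from them. At day 10, Malat1 in KO replicate 2 was at 1843 CPM against 446 to 522 in the other 3 libraries, a gap that passes Dixon's 95% value. Chance does so in about 1 in 20 sets of 4, and 36 such sets were looked at, so a flag like this can arise by chance.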

How the results depend on the processing

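Ccnl1 in WT at day 10 against day 0 kept its direction and its call in all settings run, at 1.52 to 1.89 with 1 library left out. The number of the 6 genes called there (1) was 4 (Ccnl1, Clk1, Clk4 and Ccnl2) in each of the 3 FPKM settings, in the fit of 16 libraries and with total counts, and 1 to 3 with 1 library left out. In KO (0) it was 2 (Ccnl1 and Clk1) in the 3 FPKM settings and 1 (Ccnl1) with 16 libraries or total counts, and 0 to 0 with 1 library left out. It was 0 in every setting for both genotype comparisons and for the interaction, though in the fit of 16 libraries 3 genes had an unadjusted p under 0.05 at day 10 and 3 in the interaction.

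Over all genes, calls between KO and WT at day 0 (642) were 361 in FPKM, 318 in FPKM with no filter, 394 with 16 libraries, 1273 without both neutrophil-rich libraries, and 296 (without WT day 0 replicate 1) to 852 (without WT day 10 replicate 4) with 1 library left out. At day 10 (217) they were 505 with DESeq2, 41 with FPKM + 1, 25 with FPKM + 0.1, 72 in FPKM with no filter, 8 with 16 libraries, 69 without both neutrophil-rich libraries, and 23 (without KO day 10 replicate 1) to 2045 (without WT day 10 replicate 4). With the replicate block, where the numbers pair these samples by the correlation of their deviations, they were 21, and the block changed no call of the 6 genes in any of the 5 comparisons. Interaction calls (508) were 862 with DESeq2, 1 with FPKM + 1, 161 with FPKM + 0.1, 4 in FPKM with no filter, 2 with 16 libraries, 153 without both neutrophil-rich libraries, and 246 (without WT day 0 replicate 1) to 1811 (without WT day 10 replicate 4). The cause was not tested.

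Signs turned only for values that passed no test. Between KO and WT at day 0, Neat1 was -0.00134 with RLE, -0.000235 with DESeq2 and -0.0158 with the replicate block (-0.13 to 0.16 with 1 library left out), and Clk4 -0.0177 with RLE, -0.0164 with DESeq2 and -0.0152 with 16 libraries (-0.0573 to 0.0735). Malat1 ran from -0.0470 to 0.66 there, from -0.96 to 0.32 between genotypes at day 10 and from -0.0653 to 0.74 in WT at day 10 against day 0. In KO at day 10 against day 0, Malat1 was 0.45 with FPKM + 1, with and without the filter, 0.46 with FPKM + 0.1, 0.00721 with the replicate block and 0.35 with total counts (-0.87 to 0.28), Neat1 -0.0014 with RLE, -0.000757 with DESeq2 and -0.0187 with 16 libraries (-0.13 to 0.15), and Ccnl2 0.49 with FPKM + 1, with and without the filter, 0.50 with FPKM + 0.1 and 0.34 with total counts (-0.25 to 0.0215). In KO at day 5 against day 0, given with no test, Clk1 (-0.46), Clk4 (-0.42) and Ccnl1 (-0.01) turned to 0.11, 0.06 and 0.40 with FPKM + 1. Of 15 relations 8 passed, against 7 by rho, 6 in FPKM, 6 without KO day 0 replicate 4 and 9 without both neutrophil-rich libraries. The smallest count of the 6 genes was 390, and the intervals rest on the spread pooled over all 24 libraries.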
